A study of Homo sapiens with 10 samples.

Results

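The olfactory receptor (OR) genes of human chromosome 11 were taken as the protein-coding genes of that chromosome whose symbol is OR, a number, 1 or 2 letters and a number in GENCODE release 44 on GRCh38. The rule selected 172 of the 20033 protein-coding genes and 172 of the 400 OR genes in the genome, which lie on 18 chromosomes. The study treated undifferentiated human induced pluripotent stem cells (hiPSCs) with micrococcal nuclease (MNase), an enzyme that digests the linker DNA and leaves nucleosomal DNA, for 5 min at 10, 6, 3, 1 or 0.5 U. All samples came from the line PB010.5, in which the EEF2 locus holds a FUCCI cassette, a reporter of the cell cycle, and yeast nucleosomal DNA was added to every sample before library preparation. Each digestion gave 1 library that was sequenced at a high and a low depth, so the 10 samples hold 1 library per concentration. The values come from 1 list of 12921589 nucleosome positions called on pooled libraries, and the runs that were pooled are not named. With no replicates there was no test between conditions and no p-value, and genes and positions were not treated as replicates.

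OR genes encode G protein-coupled receptors that detect odorants in the neurons of the nose, where each neuron expresses a single member. They sit in gene clusters, have a coding sequence without introns in nearly all members, and fall into class I, the receptors shared with fish, and class II, the receptors that expanded in land vertebrates. In other cell types most of them are silent, and their promoters are poor in CpG, the dinucleotide that is abundant at the starts of broadly expressed genes. Their expression in these hiPSCs was not analysed here.

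Of the 172 genes, 55 were class I (families 51, 52 and 56) and 117 were class II, and together they came from 11 families. In 171 genes the coding sequence lay in a single exon, and it ran from 906 to 1005 bp with a median of 942 bp. The annotated transcription start coincided with the first base of the start codon in 82 genes and lay upstream in 90, at most 155600 bp upstream, in OR9Q1. A start that coincides with the start codon marks a transcript model without a 5′ untranslated region. The observed to expected CpG ratio within 500 bp of the start was below 0.4 in 167 genes, with a median of 0.153. The exceptions were OR5M8, OR5D18, OR52N2, OR8H1 and OR10Q1. The comparison genes were the 4242 protein-coding genes of the other 21 autosomes with a ratio below 0.4, whose median ratio was 0.220. OR genes of those autosomes are part of this set, and 4021 genes remain without them. The comparison values on single autosomes include them too.

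The coding exons share the motif MAYDRYVAIC, the inner end of the third membrane helix, which is the best known signature of the family. It was found with at least 8 of 10 residues equal in 139 genes and exactly in 37, and its first base lay a median of 351 bp from the start codon. The DNA encoding it, or its best match, is shown for 5 genes, 5' to 3' on the coding strand. Capitals mark the 3 codons at the place of DRY.
OR51E2, class I, chr11:4682334-4682363, minus strand: atggcctttGACCGTTATgtggccatctgc
OR51B4, class I, chr11:5301575-5301604, minus strand: ttggcctatGACTGTTTCattgccatccgc
OR51B6, class I, chr11:5351853-5351882, plus strand: atggcttatGACTGTTTCattaccatccgc
OR6A2, class II, chr11:6795313-6795342, minus strand: atggcctatGATCGCTATatggccatctgc
OR10S1, class II, chr11:123977269-123977298, minus strand: atggcctatGACCGCTATctggctatctgt
OR51E2, OR6A2 and OR10S1 matched 9 residues, and OR51B4 and OR51B6 matched 5. The motif lay wholly inside a called position in 97 of the 172 genes (56.4%), next to 56.02% for all 30-base stretches of the same exons, and no called position touched it in 39. The alignment of the coding sequences at this motif thus came with no excess of positions over it.

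Every position in the list is an interval of 140 bp with 1 score, a height that is the authors' own value and is never negative. Scores move in steps of 1.23, the reads behind a step are unknown, and the median score was 14.8 in the whole list and on chromosome 11. The midpoints lie mostly on a grid of 10 bp, which limits any location to about 10 bp. With no replicates, the range over the 21 autosomes stands in for the spread of the comparison values where it is given.

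Around their starts the OR genes of chromosome 11 carried fewer positions, with lower scores, than other CpG-poor genes, and the lower number rested on 1 gene cluster. The density was 0.902 times that of the comparison genes, and 0.980 times without cluster 4, the 51 genes next to the centromere. Within 1500 bp of the start there were 2254 positions, each counted for 1 gene only, or 4.37 per kb. The comparison genes had 4.84 per kb, with 3.77 to 5.40 on single autosomes, so 3 autosomes lay below the OR genes and 18 above. A single OR gene had 3 to 20 positions in this window of 3 kb with a median of 13. The median over genes of the mean score was 13.5, from 8.39 in OR4A8 to 21.3 in OR51D1. In the comparison genes it was 18, and it ranged from 14.6 to 21.3 over the autosomes, all 21 of which lay above the OR genes. The 227 OR genes on other autosomes had 4.01 positions per kb and a score of 14.2. The 326 CpG-poor genes of chromosome 11 that are not OR genes had 4.95 per kb and 18.6.

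GC content moved with both values. The windows around the OR starts held 38.4% GC, against 46.9% around the comparison starts, and the score of a position rose with its GC content in both sets, apart from bins of 7 or fewer OR positions. Positions of 45 to 50% GC had a mean score of 16.9 in the OR coding exons (264 positions), 17.2 in the OR windows outside them (196 positions) and 18.3 in the comparison genes (9804 positions). When each OR position was set against comparison positions in the same bin of 5% GC, the observed mean was 14.1 and the mean at equal GC 15.4, a ratio of 0.915. The same ratio for single autosomes of the comparison ran from 0.925 to 1.04. Within that range lay the 130 OR genes with unique coding sequence (0.931), class I (0.941) and the 111 genes outside the clusters beside the centromere (0.953), described by cluster further on. The ratio was 0.913 for the 821 positions in coding exons and 0.9202 for the 1684 outside them. The number of positions did not stay lower in the same way: at equal GC, the density in the OR windows was 1.03 times that of the comparison genes, inside the range of single autosomes from 0.774 to 1.09. The part of GC content in these differences was not tested.

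Directly upstream of the start, where active CpG-rich promoters have a gap, the OR genes had none in the mean profile. The density of midpoints over the 200 bp upstream, relative to 1000 to 1500 bp away, was 0.14 on the log2 scale, against 0.07 in the comparison genes (SD 0.07 over autosomes, range -0.04 to 0.30) and -0.20 over all 17794 protein-coding genes of the other autosomes. The OR value lay above 17 of the 21 autosomes of the comparison and below 4, within their spread. It was 0.02 for the 82 OR genes annotated from the start codon and 0.22 for the 90 with an upstream start. By place it was uneven, at -0.07 in the 61 genes of the clusters beside the centromere and 0.21 in the other 111 genes. In cluster 4 alone it was -0.15. The values of cluster 4 and of the 61 genes lay below the range of single autosomes. No midpoint fell in these 200 bp in 41 OR genes, 23.8% of them. The share was 18.3% in the comparison genes, 32.2% in OR genes of other autosomes and 25.8% in all protein-coding genes. Of the other OR genes, 107 had 1 midpoint there and 24 had 2.

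Downstream of the start the profile reached 1.53 times its flanks at 115 bp. The comparison genes reached 1.28 at 105 bp, with 1.19 to 1.85 on single autosomes, and all protein-coding genes 1.75 at 125 bp. The OR value lay above 14 of the 21 autosomes and below 7, so the height of this maximum was within the spread between autosomes. In the OR genes annotated from the start codon it reached 2.09 at 105 bp, and in those with an upstream start 1.40 at 35 bp.

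**Figure D1:**
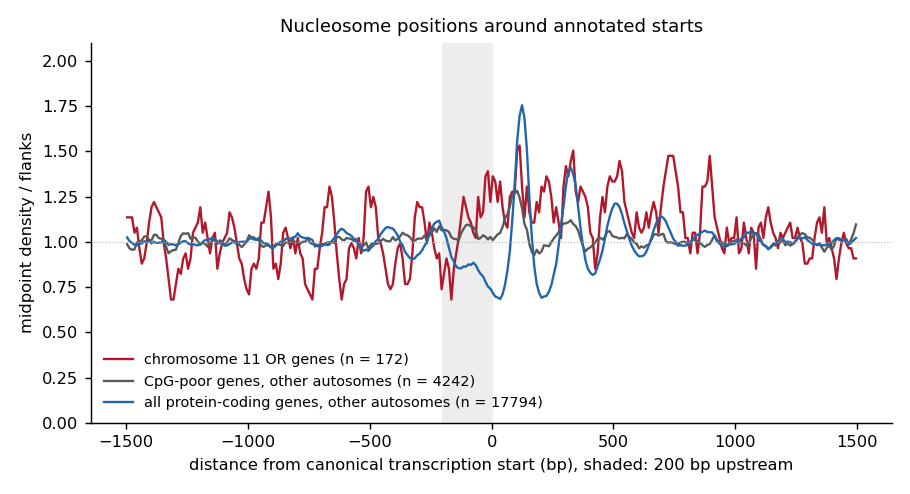
Midpoint density (running mean of 5 bins of 10 bp, relative to the level 1000 to 1500 bp away) against the distance from the annotated start in bp, for the 172 OR genes, the 4242 CpG-poor genes and all 17794 genes. Averaged over the 200 bp upstream of the start, the line of all genes is lowered and the other lines are not. The OR line is uneven, with local minima of 0.681 at 165 bp and at 735 bp upstream. It stays raised on average past the start, over the coding exon of many genes.

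Aligned at the start codon, the OR genes had a raised mean density in each 300 bp of the coding exon, with local minima down to 0.851 at 695 bp. The mean density was 1.33 times the flanks from 0 to 300 bp, 1.36 from 300 to 600 bp and 1.32 from 600 to 900 bp, against 0.942 from 400 to 100 bp upstream of the start codon and 0.976 from 1000 to 1500 bp beyond it. GC content followed the same outline, with 46.0%, 47.7% and 45.8% in the 3 stretches of the exon, 34.8% upstream and 34.97% beyond. The maximum within 300 bp of the start codon was 1.82 at 95 bp, above all 21 autosomes of the comparison, which ran from 1.17 to 1.69. It was 2.55 in the 61 genes of the clusters beside the centromere and 1.66, inside that range, in the other 111 genes. Its place differed too, at 275 bp in class I and 245 bp in cluster 5, next to 95 bp in class II and cluster 7. The OR genes of other autosomes reached 1.69 at 85 bp, and CpG-poor genes that are not OR genes 1.15 at 65 bp.

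A midpoint between 70 and 120 bp from the start codon was present in 60 of the 172 genes (34.9%), in 32.6% of the OR genes on other autosomes and in 27.1% of the other CpG-poor genes. This stretch was placed around the maximum at 95 bp after the profile was seen and does not hold the maximum of the other CpG-poor genes at 65 bp, so nothing is read from the difference in shares. A further maximum of 1.98 at 755 bp had a weaker counterpart of 1.57 at 745 bp in the OR genes of other autosomes, whereas in the middle of the exon the maxima lay apart, at 365 bp and 495 bp. Across 18 bins of 50 bp the profiles of both OR sets correlated with r = 0.303 over the coding sequence, and with r = 0.369 across 30 bins upstream of it. These bins share the list and the base composition of the family, so the values are a description of how alike the outlines were.

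**Figure D2:**
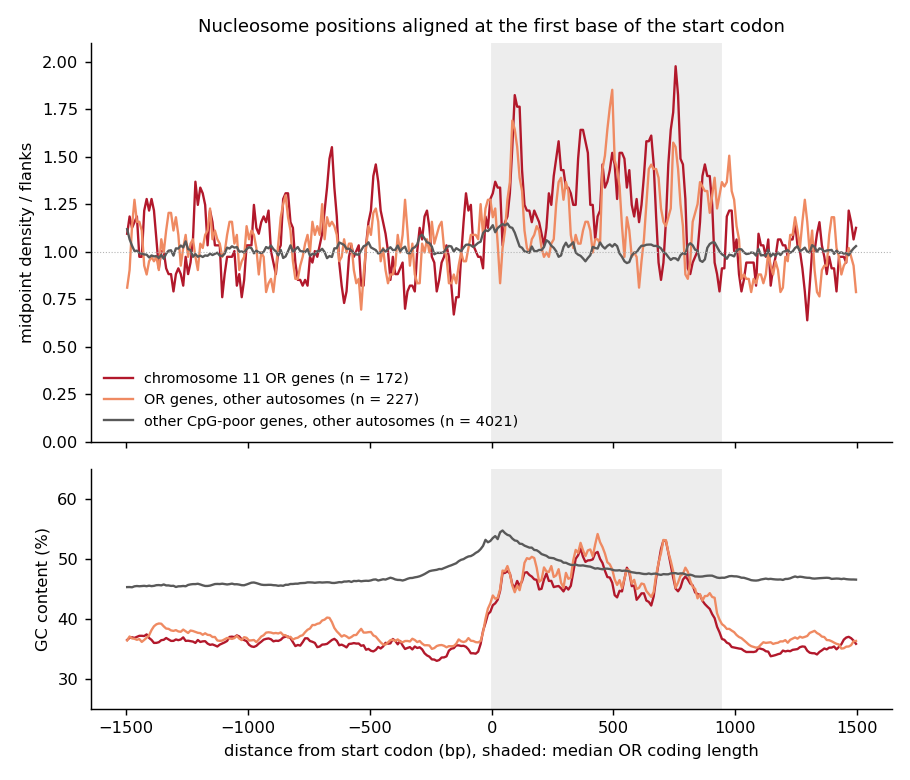
Upper panel, midpoint density relative to 1000 to 1500 bp away, and lower panel, GC content in percent, against the distance from the start codon in bp, for 172 OR genes of chromosome 11, 227 OR genes of other autosomes and 4021 other CpG-poor genes. Both OR lines lie higher on average over the shaded coding sequence in both panels, with first maxima of 1.82 at 95 bp and 1.69 at 85 bp and highest values of 1.98 at 755 bp and 1.85 at 495 bp.

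Each coding exon was then set against its own flanks, the 1000 bp on either side. The exons held 821 positions, 5.05 per kb, and the flanks 3.93 per kb, a ratio of 1.29 that lay above all 21 autosomes of the comparison (0.829 to 1.23). The ratio was 1.61 in the 61 genes of the clusters beside the centromere. Inside the range lay the 111 genes outside those clusters (1.17) and the OR genes of other autosomes (1.205). The comparison used the largest coding exon of a gene where it was at least 600 bp, and there the densities were 4.88 and 4.56 per kb, a ratio of 1.07. Without OR genes, 975 of these 1196 exons remained and the ratio was 1.04. The density in the OR exons itself was within the range of the comparison exons on single autosomes, 3.40 to 5.67 per kb, and that of the flanks below 19 of 21. Single OR exons held 0 to 7 positions, with 5 in 59 genes, 6 in 43 and 4 in 29. The exon held more positions per kb than its flanks in 133 of the 172 genes (77.3%). This share was 60.45% in the comparison genes, 63.0% in OR genes of other autosomes and 63.3% in all protein-coding genes. By cluster it was uneven, with 92.2% in cluster 4 and 50.0% in cluster 7.

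The score was also higher in the exons than in the flanks, but it did not follow the density in every cluster. In cluster 7 the ratio of exon to flank was 0.971 for density and 1.26 for score. The same ratios were 1.22 and 1.0 in cluster 2. Over genes, the median score was 16.3 in the exon and 12.5 in the flanks, so the exon reached a level above the list median and the flanks did not. In the comparison genes the medians were 18.6 (16.1 to 21.4 on single autosomes) and 16.3 (13.7 to 21.3), and in OR genes of other autosomes 16.3 and 13.1. Without their OR genes the comparison genes had medians of 19.1 and 17.2. Of the OR positions in coding exons, 57.7% were at or above the list median of 14.8. Of those in the windows around the starts 42.5% were, and in the comparison windows 65.3%. The mean score was higher in the exon than in its flanks in 144 of the 168 OR genes that had positions in both, which is 85.7%. The share was 68.3% in the comparison genes (65.7% without their OR genes), 79.4% in OR genes of other autosomes and 63.6% in all protein-coding genes. On single autosomes of the comparison it ran from 52% to 85.7%, so the highest autosome equalled the OR value. The ratio of exon to flank score, a median of 1.203 over OR genes, likewise lay inside the range of 1.02 to 1.25 on single autosomes, 4 of which were higher. GC content was 46.2% in the OR exons and 35.5% in their flanks, and 53.2% and 44.1% in the comparison genes. Across the 168 genes, coding GC content and exon score had a Spearman rho of 0.51, as a description, since all points share the list.

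**Figure D3:**
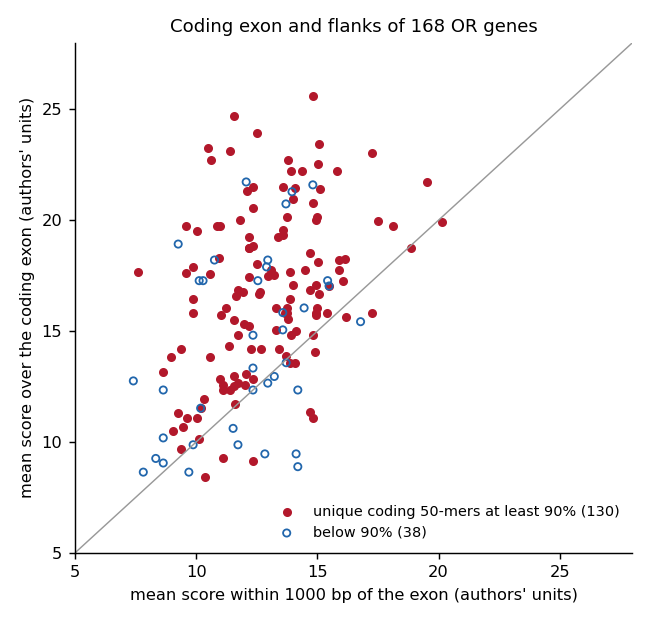
Mean score over the coding exon against mean score within 1000 bp on either side, in the authors' units, with 1 point per gene for 168 OR genes and the line of equal scores. Filled points are genes in which at least 90% of the coding 50-mers occur once in the reference, open points the others; 144 points lie above the line.

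Neighbouring positions at the OR genes were a median of 180 bp apart (quartiles 130 and 240 bp), next to 170 bp (130 and 220 bp) in the comparison genes, whose medians ran from 170 to 185 bp on single autosomes. Distances over 300 bp made up 15.0% of those at OR genes and 8.01% of those at comparison genes. OR genes of other autosomes had 14.5%. The medians differed by about 1 step of the 10-bp grid and lay within that range.

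Several receptors are near-copies of each other, and a read from a shared stretch has several matches. In 130 genes at least 90% of the coding 50-mers occurred once in the reference, and in 42 genes fewer did. The first had 5.53 positions per kb of coding sequence with a score of 16.8, and the others had 3.58 per kb and 13.5, while GC content was 46.2% and 46.3%. All 4 genes without a coding position belonged to the 42. They were OR51A4, OR4C46, OR8B2 and OR8B3. OR8B2 and OR8B3 share 57.2% of their coding 50-mers with each other and both had 0 positions. OR51A4 shares 54.2% with OR51A2, which had 2. In OR4C46, 72.1% of the 50-mers occurred once. How the authors treated reads with several matches is not given in the sources used here, so these exons were read as uncertain and not as free of nucleosomes. Among the 130 genes the exon score exceeded that of the flanks in 118, and the ratio of exon to flank density was 1.33.

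Neighbouring starts less than 1 Mb apart put the genes into 7 clusters, and the values differed between these. Cluster 1 (chr11:4367263-7941708, from OR52B4 to OR10A3) held 67 genes and all 55 of class I. Cluster 2 (chr11:48216810-48489722) held 7, cluster 3 (chr11:49952391-50033794) 3 and cluster 4 (chr11:54603069-56989843) 51, and these 3 lie on either side of the centromere. Cluster 5 (chr11:58023881-59713845) held 21, OR2AT4 stood alone as cluster 6, and cluster 7 (chr11:123753580-124582942) held 22.

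The 61 genes of clusters 2 to 4 had 3.52 positions per kb around their starts and a score of 11.7, and the 111 genes of the other clusters had 4.83 per kb and 14.5. The lowest values were those of cluster 3, at 2.33 per kb and 10.3, and cluster 4 had 3.46 per kb and 11.8. Over coding exons the score was 13.1 in cluster 2, 11.1 in cluster 3 and 13.1 in cluster 4, whereas it was 17.5 in cluster 1, 17.3 in cluster 5 and 18.01 in cluster 7. At equal GC the score ratio was 0.817 in clusters 2 to 4 and 0.953 in the others, so clusters 2 to 4 were lower at equal GC too. In clusters 2 to 4 it was 0.843 over the 42 genes with unique coding 50-mers.

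The lower values were not limited to receptors. The 5 CpG-poor genes within the spans of clusters 2 to 4 that are not OR genes had 2.80 positions per kb, a score of 10.4 and a ratio of 0.787. The 33 such genes within the other spans had 4.62 per kb, 15.5 and 0.977. Over the whole span, genes and intergenic DNA together, the median score was 11.1 in cluster 2 and 9.87 in clusters 3 and 4, against 14.8 on chromosome 11 as a whole. In cluster 4 no midpoint fell in the 200 bp upstream of the start in 45.1% of the genes, and in cluster 7 in 0 of its 22 genes. The density was 4.52 per kb in the exons and 2.71 in the flanks of cluster 4, 5.47 and 4.47 in cluster 1, and 4.59 and 4.73 in cluster 7, where 8 of the 22 genes had fewer than 90% unique coding 50-mers.

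**Figure D4:**
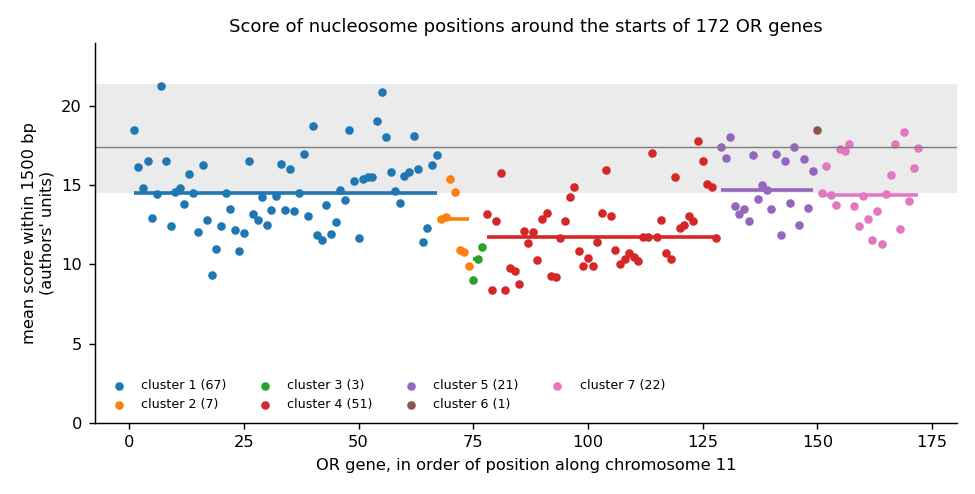
Mean score of the positions within 1500 bp of the start, in the authors' units, for the 172 OR genes in order along chromosome 11, coloured by cluster, with the median of each cluster as a bar. The grey band is the range of the medians of 21 autosomes of CpG-poor genes (14.6 to 21.3) and the line in it their median of 17.4. The medians of clusters 2 to 4 lie well below the band (12.9, 10.3 and 11.8), those of clusters 1 and 7 just below it (14.5 and 14.4) and those of clusters 5 and 6 in it (14.7 and 18.5).

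Class I and class II receptors were compared within cluster 1, where they lie in separate stretches. The class I genes ended with OR52W1 at chr11:6200186, and the class II genes began with OR2AG2 at chr11:6765626. The 55 class I genes had 4.74 positions per kb and a score of 14.3 around their starts, and the 12 class II genes 4.53 per kb and 15.8. Over coding exons the scores were 17.4 and 17.8. Over the whole chromosome the class II score was 13.2 and thus lower than that of class I, the opposite order to that within cluster 1. No difference between the classes was separable from the difference between clusters or from their separate places in cluster 1.

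Single receptors are described with all the positions called in their coding exon, in order from the start codon. OR51E1 and OR51E2 are class I receptors known for expression in the prostate. OR51E1 had 5 positions with scores of 12.3, 9.87, 14.8, 12.3 and 7.40, and its mean of 11.4 was below the 14.7 of its flanks. OR51E2 had 6 positions with scores of 17.3, 22.2, 13.6, 14.8, 6.17 and 19.7, a mean of 15.6 next to 16.2 in the flanks. Both thus went against the 144 genes with a higher exon, although their exons held 50.4% and 51.04% GC.

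OR51B4 and OR51B6 lie beside the beta-globin genes. OR51B4 had 6 positions with scores of 12.3, 22.2, 16.04, 12.3, 13.6 and 14.8, and its mean of 15.2 was above the 12.2 of its flanks. OR51B6 had 7 positions with scores of 18.5, 18.5, 14.8, 19.7, 14.8, 9.87 and 12.3, with a mean of 15.5 over flanks of 11.6. These neighbours had nearly equal levels, both close to the median over all OR exons.

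OR6A2 responds to aldehydes. Its 6 positions scored 17.3, 25.9, 27.1, 23.4, 23.4 and 21.0, and the mean of 23.03 compared with 17.3 in the flanks. All 6 were above the list median, which made its exon the highest of the 10 receptors fixed by what is known of them. OR5AN1, the musk receptor, had 5 positions scoring 12.3, 18.5, 14.8, 14.8 and 14.8. OR5A1, the receptor of beta-ionone, had 5 scoring 16.04, 19.7, 24.7, 12.3 and 27.1. Both lie in cluster 5 and both had a midpoint 72 bp from the start codon. The maximum within 300 bp of the start codon lay at 95 bp over all OR genes but at 245 bp in cluster 5. The mean was 13.3 in the flanks of OR5AN1 and 15.0 in those of OR5A1, so both exons were higher than their surroundings.

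OR2AT4, a receptor of sandalwood odorants that skin cells also express, had 6 positions scoring 14.8, 14.8, 18.5, 28.4, 17.3 and 7.40. Upstream of its annotated start, a position with its midpoint 95 bp away scored 37.0. OR10G4, the receptor of guaiacol, and OR10G7, that of eugenol, had 2 positions each, scoring 9.87 and 21.0 in OR10G4 and 13.6 and 29.6 in OR10G7. Only 48.5% of the coding 50-mers of OR10G4 and 53.2% of those of OR10G7 occurred once in the reference, so a low number of positions is not informative for this pair.

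The highest exon scores were those of OR2D2 at 25.6, OR10S1 at 24.7 and OR8D1 at 23.9. OR2D2 had 4 positions scoring 18.5, 22.2, 32.1 and 29.6. OR10S1 had 6, scoring 30.9, 22.2, 25.9, 23.4, 34.6 and 11.1. OR8D1 had 5, scoring 28.4, 24.7, 32.1, 24.7 and 9.87. The high mean thus came from several positions in each exon. In OR10S1 and OR8D1 the last position before the stop codon was the lowest. The flanks of these genes had means of 14.8, 11.6 and 12.5.

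The lowest exon scores were those of OR4C16 at 8.43 and OR4A8 and OR5M3 at 8.64, all in cluster 4. OR4C16 had 6 positions scoring 4.94, 7.40, 9.87, 7.40, 8.64 and 12.3, in an exon whose 50-mers were all unique. OR4A8, 1 of the 7 OR genes of the set with a stop inside the reading frame, had 3 positions scoring 8.64, 7.40 and 9.87. OR5M3 had 1 position, scoring 8.64, and 66.3% of its 50-mers were unique. OR4C16 is therefore the case in which a low score came with as many positions as in OR51E2 and without near-copies.

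The most positions per kb were found in OR5M11 (7.65), OR52J3 and OR8B8 (7.50 each), with 7 positions in each exon. OR5M11 scored 17.3, 19.7, 24.7, 17.3, 22.2, 14.8 and 7.40, and its mean of 17.6 stood over flanks of 9.60 although it lies in cluster 4. OR52J3 scored 14.8, 22.2, 14.8, 14.8, 7.40, 12.3 and 8.64. OR8B8 scored 25.9, 29.6, 25.9, 8.64, 18.5, 21.0 and 9.87, with a mean of 19.9 and the highest flanks of the family, at 20.2. The mean exon scores of these dense rows were 13.6 in OR52J3, 17.6 in OR5M11 and 19.9 in OR8B8. The family median was 16.3, with quartiles of 13.05 and 18.8.

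**Figure D5:**
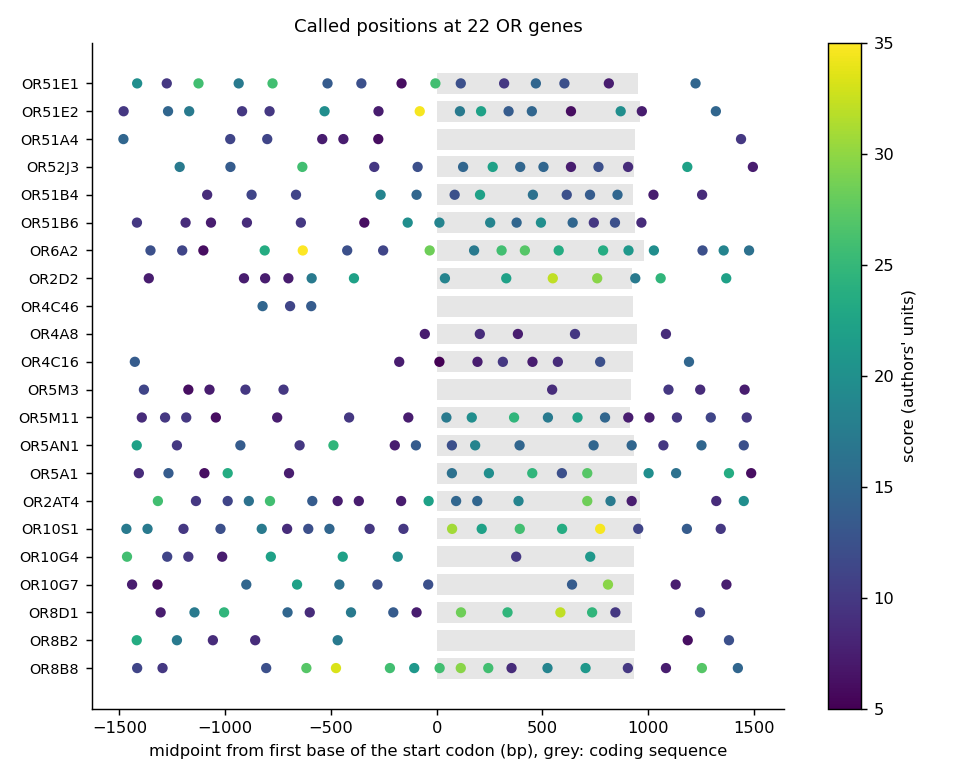
Called positions at 22 OR genes, 1 gene per line from the top in order along chromosome 11, with the midpoint's distance from the start codon in bp, the score as colour in the authors' units and the coding sequence in grey. The exons of OR51A4, OR4C46 and OR8B2 are empty, and 7 positions fill those of OR5M11, OR52J3 and OR8B8.

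The DNA at the centre of the highest position in the exon is shown for the 3 highest and the 3 lowest exons, since these bracket the range of the family. The 30 bases around the midpoint are given on the coding strand, with the middle 10 in capitals.
OR2D2, score 32.1, chr11:6891937-6891966, minus strand: tgtgaggcccCTGCACTATTgatcttagca
OR10S1, score 34.6, chr11:123976877-123976906, minus strand: gctcctgtacTACGTGCCACctgtctgtat
OR8D1, score 32.1, chr11:124310167-124310196, minus strand: aacacacaccTCAATGAGCTtctacttttt
OR4C16, score 12.3, chr11:55572887-55572916, plus strand: tttatgtacaCATGCCTTGCaaccgtattc
OR4A8, score 9.87, chr11:54683517-54683546, plus strand: tctcctatggGGTCATCCTAaactccctta
OR5M3, score 8.64, chr11:56469937-56469966, minus strand: gcagatccacCTCTCATCAAaatggcctgt
These 30 bases held 50.0%, 53.3% and 36.7% GC in the high exons and 40%, 46.7% and 50.0% in the low ones, so the ranges overlapped. The highest single positions in the coding exons of the family were in OR8U1, at 44.4, and OR2AG2, at 43.2. Both were named here after their values were seen, as were OR9Q1, OR51D1, OR8B3 and OR51A2.

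Around the starts, runs of at least 10 A or T were present in 47.1% of the OR genes and 52.5% of the comparison genes. The palindromic consensus of the early B-cell factor family, which activates OR genes in olfactory neurons, was searched on both strands in a shorter stretch close to the annotated start. It was present in 2 OR genes (1.16%), next to 1.60% of the comparison genes and 1.35% of all protein-coding genes. Both were among the 90 OR genes with an upstream start (2.22%). In the 82 annotated from the start codon, where the stretch searched lies at the start codon, it was found in 0. Over all 172 genes neither feature was more frequent around OR starts than around comparison starts, and with 2 genes no direction is read from the consensus.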

How the data were processed

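MNase-treated DNA of hiPSCs was sequenced by the authors, with reads trimmed with Trimmomatic 0.40 per the submitters' processing notes, aligned to GRCh38, cleared of blacklisted regions and passed to the nucMACC workflow. The deposited list of positions gives a signal, the authors' height per position (called score here), whose scaling is not stated. The aligner and the treatment of reads with several matches are not given in the sources used here. Read depth per position is unknown, so no interval is given.

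Midpoints were taken as the start plus 70 bp and set against canonical transcripts of GENCODE release 44, whereas the study's methods name another release. Profiles used bins of 10 bp smoothed over 5 bins. Scores at equal GC used bins of 5%. The OR genes, lists and alternatives were chosen with earlier results of these data known. The genes named were 10 receptors with known ligands, expression outside the nose or a place beside the beta-globin genes, and the 3 at each extreme of exon score and of positions per kb. The best match to MAYDRYVAIC was sought in each translated coding sequence. Sequences were read from the hg38 reference. No filter on score was applied. The scripts ran under Python 3.11.15 with numba 0.67.0, matplotlib 3.10.9, pandas 2.3.3, SciPy 1.17.1 and NumPy 2.4.6 and were tested on simulated data.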

Additional observations from a re-analysis of the deposited data

How the results depend on the processing

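No paired analysis was possible because the result comes from 1 pooled list with no value per sample. Of 75 alternatives to 8 results, given as ratios of OR to comparison genes except for differences, profile heights and distances, 66 moved the value by less than its SD over autosomes and 9 moved it by more. Restricting the list to positions at or above its median score changed 7 results: the density ratio around starts from 0.902 to 0.587, the score ratio from 0.752 to 0.866, the log2 difference upstream to 0.28, the downstream maximum from 1.53 to 2.51, the score ratio at equal GC from 0.915 to 0.957, the median distance from 180 to 250 bp and the density ratio over coding exons from 1.03 to 0.876. In the whole list that last ratio lay within its SD of 0.146 of 1, and it was also below 1 against CpG-poor genes of chromosome 11 (0.995), against all coding exons (0.973) and without cluster 1 (0.980), so no direction is read from it. The log2 difference upstream, 0.06 in the main setting, was -0.0014 at the start codon. Aligning at the start codon gave a downstream maximum of 1.82. Without 1 cluster at a time, the density ratio around starts ran from 0.857 to 0.980, the highest without cluster 4, so the lower density rests on that cluster, while the score ratio ran from 0.727 to 0.802. Over coding exons the density ratio ran from 0.980 to 1.08 and the score ratio from 0.847 to 0.919. The comparison with single-exon genes was added after seeing the data and moved no value beyond its SD. Causes were not tested. The list has no replicates and no read totals.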
